A study of Mus musculus with 20 samples.

Results

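The protein components of cytosolic ribosomes were followed as mRNA levels in the livers of 20 adult male mice born to dams housed at 4 temperatures. Membership was decided by gene symbol. A gene was a member if its symbol in the platform annotation was Rpl or Rps followed by a number, with an optional further letter a, x, y or l and an optional last digit, or was Rplp0, Rplp1, Rplp2 or Rpsa. Symbols that contain -ps, which mark pseudogenes, were dropped (1 symbol). This gave 63 genes of the 19505 measured, each read by 1 of the 22206 transcript clusters of the array, the rows into which the platform groups its probes. Of these, 39 encode proteins of the large subunit and 24 proteins of the small subunit. Rplp2, Rpl13a and Rps3 were not analysed here. Their expression values are on a log2 scale, on which a difference of 1 is a doubling. As a mark of background the 95th percentile of 1091 olfactory receptor clusters, 3.90, was taken, and 61 members had a mean above it. The other 2 were Rpl39l (mean 3.45) and Rpl3l (2.49). Rpl10l, with a mean of 4.39, lay above that mark but below the array's negative control rows, which averaged 4.40 to 4.75 per array.

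All mice were of the inbred strain C57BL/6NCr, aged 4 to 5 months, wild type, fed a standard chow, and the groups differed in the temperature at which their parents were housed before mating and during pregnancy. Dams had been acclimated before mating, for 3 weeks at 30 °C and for 2 weeks at 18 °C or 10 °C, and sires for 3 days, while the control pairs stayed at the usual animal house temperature of 23 °C. On the day of birth every dam and litter went to 23 °C, where the sons lived until the liver was taken, so that the livers were sampled months after the temperatures had ceased to differ. The 4 groups of 5 sons are called 10 °C, 18 °C, 23 °C and 30 °C offspring, and single arrays carry the animal number of the labels. The labels name no litter, dam or batch. The p-values thus reflect spread between arrays that may hold littermates.

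A ribosome is built of a small subunit, which reads the mRNA, and a large subunit, which joins the amino acids. Most ribosomal proteins are normally present in a single copy per ribosome. Cells make these proteins in matched amounts, and their mRNAs are among the most abundant in liver. Most of these mRNAs begin with a C followed by an unbroken run of C and T bases, the terminal oligopyrimidine tract, through which the growth kinase mTORC1 and the RNA-binding protein LARP1 regulate their translation and stability.

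The start sites of the members were inspected because this tract is the sequence feature the family is known for. RefSeq promoter windows (build GRCm38.p6) were matched to 50 of the 63 members, 41 of them with a single annotated start. The lines below give 15 bases before and 15 bases from the annotated start on the strand of the gene, 5′ to 3′, and capitals mark the longest run of C and T within 20 bases of the start. Rpl6, Rpsa, Rps16 and Rpl9 are shown because the comparisons below turn on them. Rpl28, Rpl35, Rps10 and Rps18 are examples of long runs, and other members with long runs, such as Rpl7a (21 bases) and Rpl15 (17), are not printed.
Rpl6, chr5:121204486-121204515, plus strand: tggtcaCCTCCCgtcattgcttatagaccg
Rpsa, chr9:120127751-120127780, plus strand: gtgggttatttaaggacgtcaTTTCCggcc
Rps16, chr7:28350674-28350703, plus strand: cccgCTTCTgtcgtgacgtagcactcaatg
Rpl9, chr5:65391417-65391446, minus strand: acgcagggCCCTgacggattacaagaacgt
Rpl28, chr7:4792950-4792979, plus strand: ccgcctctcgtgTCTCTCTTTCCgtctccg
Rpl35, chr2:39005117-39005146, minus strand: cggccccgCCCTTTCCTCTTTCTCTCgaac
Rps10, chr17:27635230-27635259, minus strand: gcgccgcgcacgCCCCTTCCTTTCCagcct
Rps18, chr17:33955651-33955680, minus strand: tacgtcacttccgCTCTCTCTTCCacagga

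The run in Rpl35 is 18 bases long, that in Rps10 13, those in Rpl28 and Rps18 11, that in Rpl6 6, those in Rpsa and Rps16 5 and that in Rpl9 4. The median longest run was 7 bases in the members and 5 over the 27025 genes of the promoter table. A run of at least 8 bases, a length chosen after the runs had been seen, stood in 23 of 50 members (46.0%) against 18.4% of all genes. The motif CTTTCC, searched on the strand of the gene within 20 bases of the start, stood in 8 members (16%) against 2.3% of all genes, and it forms part of the runs printed for Rpl28, Rpl35 and Rps10. In the whole window of 250 bases before to 50 bases after the start, on both strands, CCGGAA stood in 26 members (52.0%) against 16.7%. The same search found GGGCGG in 29 (58.0%) against 38.2%, AAGATGG in 8 (16%) against 7.28% and TATAAA in 7 (14.0%) against 15.7%. These are matches of letters only. An annotated start can differ from the base at which transcription begins in liver.

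The livers of sons of colder dams had slightly lower ribosomal protein mRNA levels than those of sons of dams at 23 °C or 30 °C, across most of the family and by small amounts, and 0 members passed the test in any planned comparison. The mean log2 deviation of the 63 members from their own 20-array means was -0.068 ± 0.067 in 10 °C and -0.102 ± 0.059 in 18 °C offspring, against 0.059 ± 0.079 in 23 °C and 0.111 ± 0.097 in 30 °C offspring (SD, n = 5 each). In order of the animal number the 10 °C arrays stood at -0.175, -0.089, -0.030, -0.0096 and -0.035 and the 18 °C arrays at -0.140, -0.049, -0.084, -0.185 and -0.053. The 23 °C arrays stood at -0.050, 0.085, 0.125, 0.131 and 0.006 and the 30 °C arrays at 0.016, 0.034, 0.0996, 0.257 and 0.147. All 10 arrays of the colder groups were below 0 and 1 of the 10 others was, 23 °C animal 1. The means of the 30 °C arrays did not overlap those of either colder group, while 23 °C animal 1 lay within the ranges of both.

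**Figure D1:**
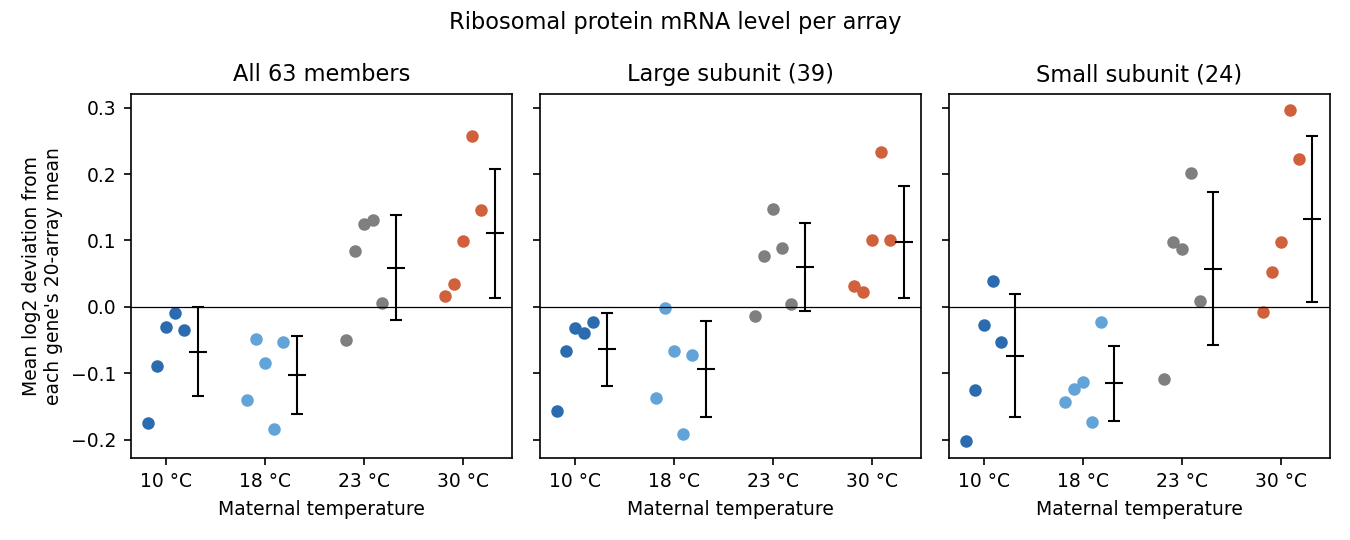
Mean log2 deviation of ribosomal protein genes from each gene's 20-array mean (vertical axis) by maternal temperature (horizontal axis), 1 point per array, for all 63 members, the 39 of the large and the 24 of the small subunit; horizontal ticks and bars are the group mean and SD of 5 arrays. All 10 points of the 10 °C and 18 °C groups lie below 0 in the first panel, and 9 of the 10 points of the 23 °C and 30 °C groups lie above it.

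The order of the group means was the same in both subunits. Large subunit members averaged -0.064 ± 0.055, -0.094 ± 0.073, 0.060 ± 0.066 and 0.097 ± 0.084 in 10, 18, 23 and 30 °C offspring (SD, n = 5), and small subunit members -0.074 ± 0.093, -0.115 ± 0.057, 0.057 ± 0.115 and 0.132 ± 0.125. Arrays differed widely within groups: 57 of 63 members lay below their own mean in 18 °C animal 5 and 8 did in 30 °C animal 7. The first principal component of the 63 members held 34.0% of their variance, with 57 of the 63 on the same side, whereas that of all clusters held 11.5%. The members and all clusters were matched neither on number nor on level here, and the group differences were left in. Within groups, the median correlation between pairs of the 55 members above background that are not -like paralogs was 0.264, with 84.3% of the pairs above 0. These correlations are a description, since all genes share the same 20 arrays, and they were not computed for other sets of genes.

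**Figure D2:**
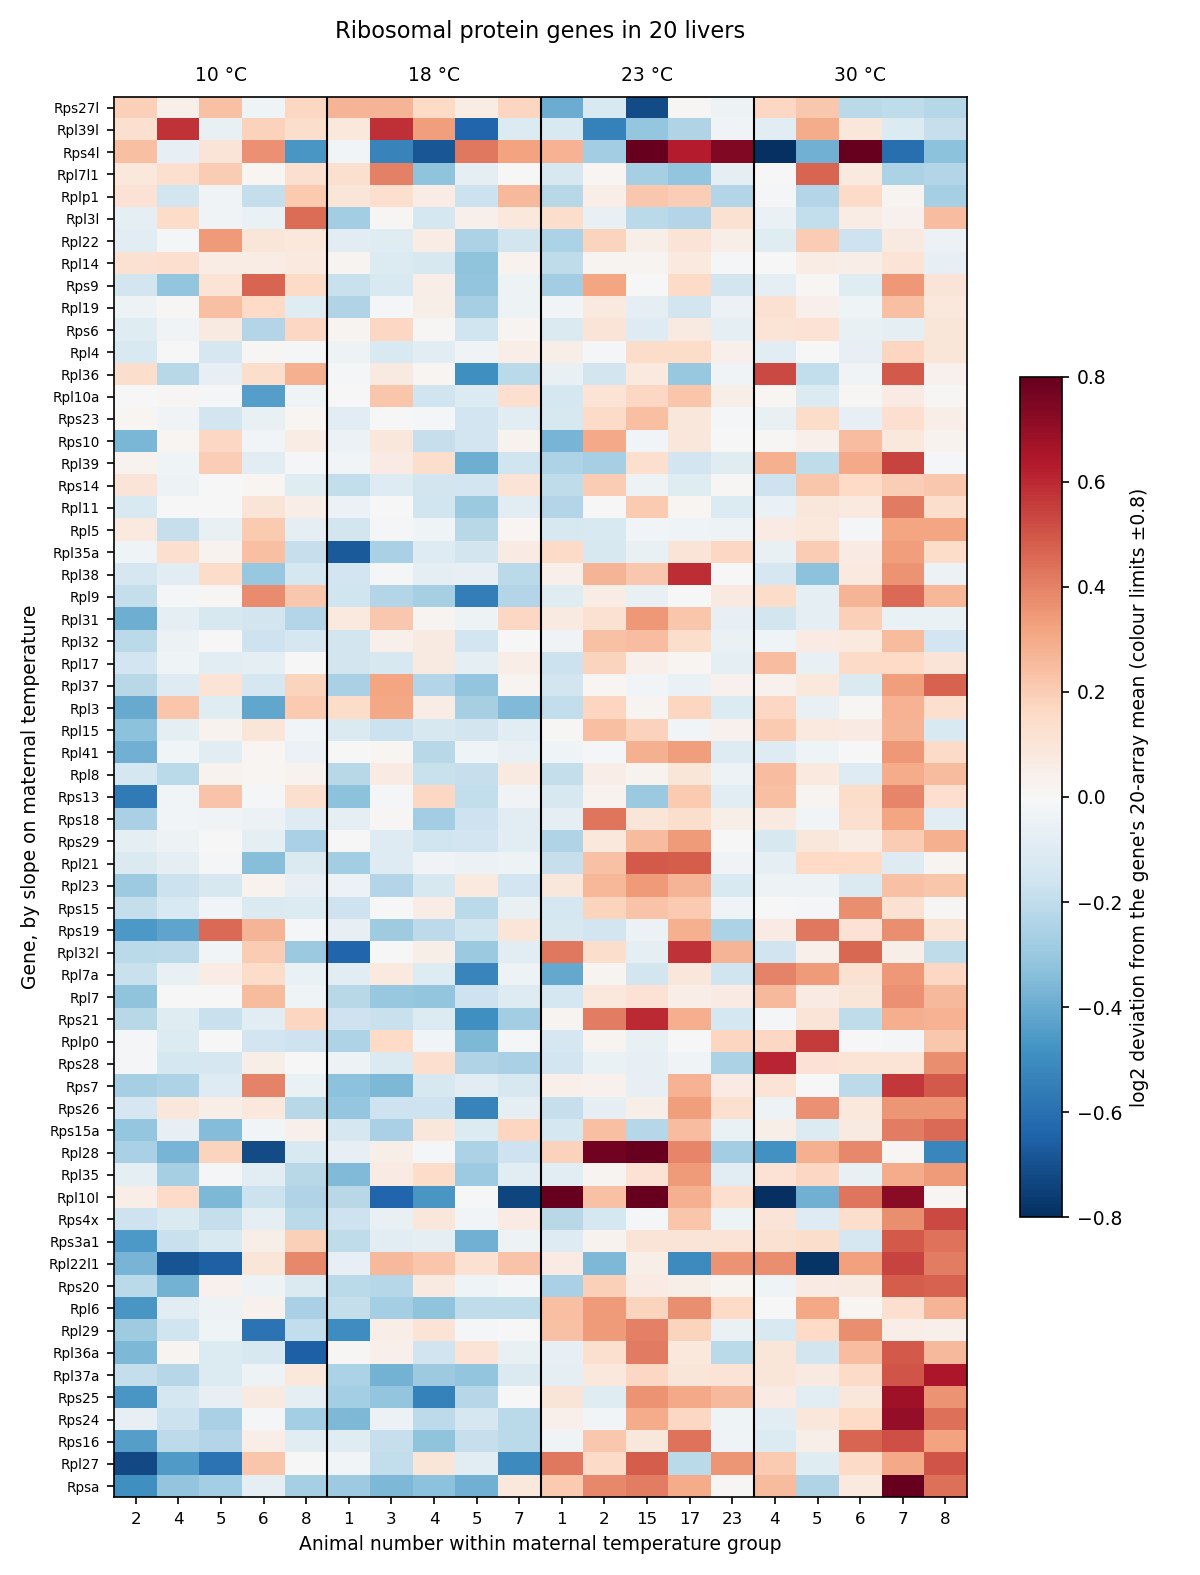
Log2 deviation of each of the 63 members (rows, ordered by slope on maternal temperature) from its 20-array mean in each array (columns, by maternal temperature and animal number), with colours limited to ±0.8. The columns of the colder groups are mostly blue, though 10 °C animal 6 is almost evenly split (32 of 63 members below their mean). Most of the other columns are mostly red, but not those of 23 °C animals 1 and 23 (43 and 36 of 63 below). The reddest column is 30 °C animal 7 (8 of 63) and the bluest 18 °C animal 5 (57 of 63).

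Some other properties of the arrays moved with this pattern in their group means. The 23 background control rows averaged 3.71 ± 0.02 and 3.71 ± 0.04 in the 10 °C and 18 °C groups and 3.65 ± 0.02 and 3.66 ± 0.06 in the 23 °C and 30 °C groups (SD, n = 5). The negative control rows averaged 4.53 ± 0.03, 4.49 ± 0.07, 4.63 ± 0.09 and 4.59 ± 0.06 in 10, 18, 23 and 30 °C offspring. Positive control rows averaged 8.75 ± 0.04, 8.74 ± 0.03, 8.78 ± 0.05 and 8.79 ± 0.04. In the colder groups the background rows were thus higher on average, while the negative and positive rows were lower, as the members were. Single arrays did not all follow, since the background rows averaged 3.64 in 18 °C animal 5 and 3.75 in 30 °C animal 4. Macrophage and Kupffer cell markers had a median difference of 0.339 between the colder and the other arrays, with 10 of 10 higher, 3 of them at an unadjusted limma p under 0.05 and 0 passing. Their summed log2 level ran from 11.55 to 12.02 in 10 °C, 11.35 to 12.19 in 18 °C, 10.72 to 11.80 in 23 °C and 10.82 to 11.99 in 30 °C arrays. Of the 6 erythroid markers Alas2, which starts haem synthesis in red cell precursors, was measured, and it was lower by 0.39 ± 0.12 in the colder arrays (SE, limma adjusted p = 0.201). Its level ran from 10.93 to 11.41 in 10 °C, 11.02 to 11.89 in 18 °C, 11.58 to 12.07 in 23 °C and 11.40 to 12.05 in 30 °C offspring. Sinusoidal endothelium markers were higher in the colder arrays in 6 of 8 (median 0.120, 1 at an unadjusted p under 0.05), and summed to 12.30 to 12.60, 12.21 to 12.70, 12.18 to 12.50 and 12.22 to 12.48 in the 4 groups. Stellate cell and fibroblast markers were higher in 7 of 8 (median 0.0388). T and NK cell markers, with 3 of 9 above background, were higher in 6 of 9 (median 0.048, 2 at an unadjusted p under 0.05). In the cholangiocyte, neutrophil, exocrine pancreas and adipocyte lists 3 of 5, 1 of 4, 1 of 4 and 3 of 4 were higher, and 0 markers passed in any list. Only 2, 1, 2 and 1 of the measured markers in these lists were above background, and 1 cholangiocyte marker was lower at an unadjusted limma p under 0.05. The 8 hepatocyte markers, all above background, summed to 22.2 to 22.3 in all 20 arrays, a sum that the most abundant of them dominate. Taken singly, 6 of the 8 were lower in the colder arrays (median -0.028, 0 at an unadjusted p under 0.05). The part of the control rows and of these cell types in the ribosomal protein pattern was not tested. The 3 measured B cell markers were not above background. In whole liver RNA, fewer cells of a type and less RNA per cell cannot be told apart.

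Between 10 °C and 23 °C offspring, which compares the most severe maternal cold with the usual housing, 44 of the 63 members had a lower mean in the 10 °C group, a share of 69.8% against 49.6% of all clusters. The median log2 difference was -0.123 over the members and 0.0024 over all clusters, and it was -0.108 in the large and -0.138 in the small subunit. Limma called 0 members, against 2 of 22206 clusters (0.00901%), and the smallest adjusted p of a member was 0.184. At an unadjusted p under 0.05, 15 members were lower and 2 higher, where the background was 5.91% lower and 5.73% higher. Leaving out 10 °C animal 2 made the 15 into 9, and leaving out 23 °C animal 17 made them 7. A covariate for the mean of the 23 background rows made them 4 and also took the count over all clusters from 1312 to 603. The median then was -0.108, and it was -0.061 when the clusters were quantile normalised again.

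**Figure D3:**
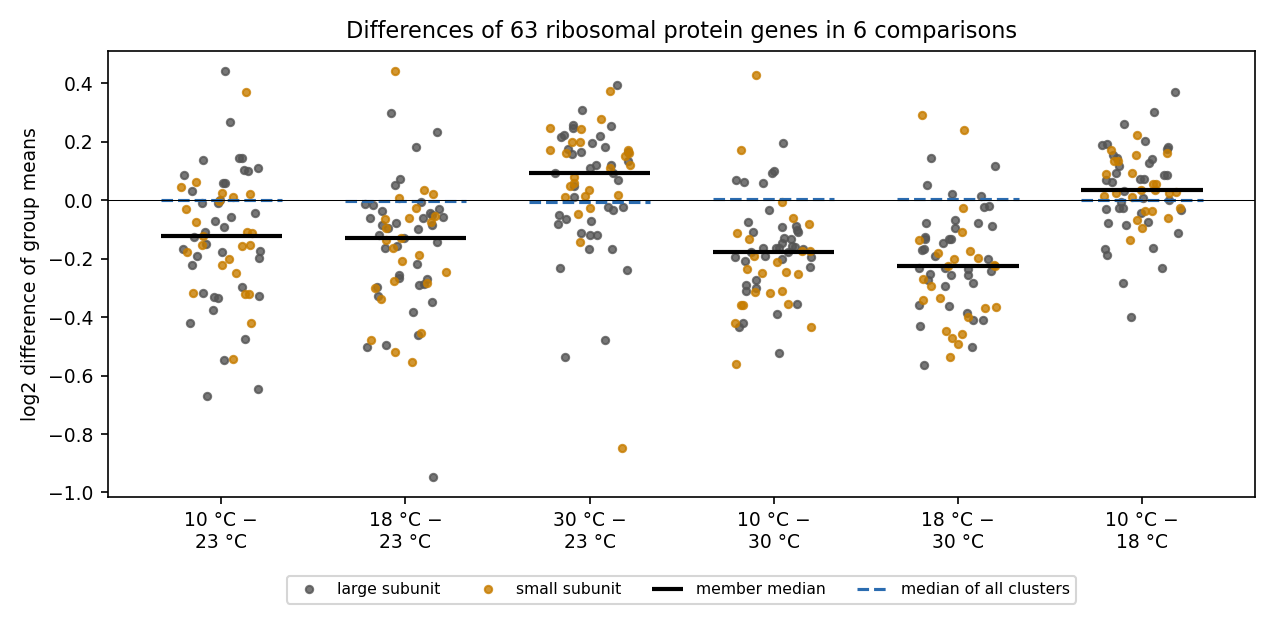
Log2 difference of group means (vertical axis) for each of the 63 members in the 6 pairwise comparisons (horizontal axis), grey for large and orange for small subunit members; black lines are member medians and dashed blue lines medians of all 22206 clusters. Member medians lie at -0.123, -0.129, 0.093, -0.176, -0.224 and 0.035 from left to right, and those of all clusters between -0.0055 and 0.0058.

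Rpl6, a large subunit protein, had the smallest p of the members here. Its 10 °C arrays read 14.62, 14.99, 15.04, 15.12 and 14.82, its 18 °C arrays 14.89, 14.81, 14.76, 14.88 and 14.88, its 23 °C arrays 15.32, 15.42, 15.26, 15.45 and 15.24, and its 30 °C arrays 15.08, 15.39, 15.10, 15.21 and 15.36. Every 10 °C and 18 °C value lay below every 23 °C value, and only 10 °C animal 6 reached the range of the 30 °C group. The 10 °C mean was 1.34-fold below the 23 °C mean, a log2 difference of -0.42 ± 0.12 (SE, 5 arrays per group, limma adjusted p = 0.184).

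Rpsa, a small subunit protein that also occurs at the cell surface as a laminin receptor, read 11.59, 11.76, 11.81, 12.01 and 11.82 in 10 °C, 11.79, 11.72, 11.75, 11.69 and 12.16 in 18 °C, 12.29, 12.46, 12.49, 12.38 and 12.09 in 23 °C, and 12.33, 11.84, 12.16, 12.94 and 12.52 in 30 °C arrays. The 10 °C values lay below all 23 °C values, 18 °C animal 7 lay apart from its group and inside the 23 °C range, and the 30 °C values spread most. The 10 °C mean was 1.46-fold below the 23 °C mean (-0.54 ± 0.16 SE, limma adjusted p = 0.206). Rpl31, of the large subunit, was the remaining member whose 10 °C arrays, at 13.76 to 14.08, all lay below its 23 °C arrays, at 14.09 to 14.50 (-0.34 ± 0.12 SE, adjusted p = 0.269). The groups did not overlap, with the 10 °C arrays lower, in these 3 members (4.76%) and in 1.4% of all clusters.

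Rpl29 and Rpl28, of the large subunit, followed by p. Rpl29 averaged 11.24 ± 0.21 in 10 °C and 11.71 ± 0.18 in 23 °C offspring (SD), a difference of -0.48 ± 0.14 (SE, limma adjusted p = 0.208). Rpl28 differed by -0.67 ± 0.22 (adjusted p = 0.236), the lowest value of any member in this comparison, and its 23 °C arrays ran from 13.78 to 15.06, so that the groups overlapped. In the opposite direction Rpl7l1, a paralog of Rpl7 that takes part in ribosome assembly, was the only member whose 10 °C arrays lay wholly above its 23 °C arrays, by a small gap (means 11.59 ± 0.07 and 11.33 ± 0.14 SD, difference 0.27 ± 0.15 SE, adjusted p = 0.490), as 1.05% of all clusters did.

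Between 18 °C and 23 °C offspring, milder maternal cold against the usual housing, 54 of the 63 members (85.7%) had the lower mean in the 18 °C group, against 50.4% of all clusters. The median difference was -0.129 over the members and -0.002 over all clusters, -0.098 in the large and -0.150 in the small subunit. Limma called 0 members and 0.0% of all clusters, with a smallest adjusted p of 0.286 among the members. Without adjustment, 16 members were lower at p under 0.05 and 1 higher, against 4.89% and 4.36% of all clusters. The 16 became 10 without 23 °C animal 15, 9 without 23 °C animal 17, 9 after renewed quantile normalisation (median -0.069) and 4 with the background control level as a covariate (median -0.138, all clusters 1086 to 655). The 2 cold comparisons share the 23 °C arrays.

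The 18 °C arrays lay wholly below the 23 °C arrays in 9 members (14.3%, against 1.04% of all clusters). They were Rpl6, Rpl9, Rpl15, Rpl37a, Rpl38, the -like paralog Rpl10l, Rps7, Rps16 and Rps24, of which Rpl15, Rpl38 and Rps7 are named after their values were seen. Rpl6 differed by -0.49 ± 0.12 (SE, 1.41-fold, limma adjusted p = 0.286), and its 18 °C arrays ran only from 14.76 to 14.89. Rps21, of the small subunit, differed by -0.48 ± 0.15 (adjusted p = 0.342) and Rpsa by -0.52 ± 0.16 (adjusted p = 0.346). Rpl10l, a paralog of Rpl10 known from testis, differed by -0.95 ± 0.24 (adjusted p = 0.286), but with its mean of 4.39 it is not clearly above background.

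Rps16, of the small subunit, read 12.25, 12.16, 12.03, 12.17 and 12.13 in 18 °C arrays against 12.32, 12.56, 12.44, 12.79 and 12.32 in 23 °C arrays. Its 10 °C arrays read 11.91, 12.14, 12.11, 12.40 and 12.26 and its 30 °C arrays 12.24, 12.40, 12.82, 12.86 and 12.67. Every 18 °C value was thus below the 23 °C range, and 30 °C animal 4 lay just inside the 18 °C range. The difference between 18 °C and 23 °C offspring was -0.34 ± 0.14 (SE, limma adjusted p = 0.484).

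Rps27l, a paralog of Rps27 that is a target of p53, is named here after its values were seen, as the only member whose 18 °C arrays, 12.29 to 12.50, lay wholly above its 23 °C arrays, 11.51 to 12.24 (0.44 ± 0.14 SE, limma adjusted p = 0.369; 0.77% of all clusters). It was also higher in 10 °C than in 23 °C offspring, by 0.37 ± 0.14 (adjusted p = 0.311), and 23 °C animal 15 held the lowest of its 20 values.

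Between 30 °C and 23 °C offspring the members leaned the other way, with 43 of 63 higher in the 30 °C group and a median of 0.093, against -0.0055 over all clusters, of which 51.3% were lower. The limma test called 0 members and 0.0% of all clusters, and the smallest adjusted p was 0.978. The unadjusted p was under 0.05 for 3 higher and 3 lower members (2.21% and 2.63% of all clusters). The median was 0.051 without 30 °C animal 7, 0.138 after renewed quantile normalisation and 0.00499, with 31 of 63 members lower, with the animal number as a block. The 3 lower members became 0 without 30 °C animal 4 and 1 when 30 °C animal 8 or 23 °C animal 15 was left out, and the 3 higher ones became 7 without 30 °C animal 5.

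Rps28, a small subunit protein, and Rpl7a, of the large subunit, had the smallest p. Rps28 read 10.94, 10.45, 10.44, 10.45 and 10.71 in 30 °C arrays and 10.18, 10.28, 10.27, 10.31 and 10.08 in 23 °C arrays, without overlap, a difference of 0.37 ± 0.12 (SE, 1.30-fold, limma adjusted p = 0.978). Rpl7a read 13.14, 13.08, 12.86, 13.09 and 12.90 against 12.33, 12.76, 12.59, 12.83 and 12.58, also without overlap (0.39 ± 0.13, 1.31-fold, adjusted p = 0.978). Its 10 °C and 18 °C means, 12.72 ± 0.13 and 12.60 ± 0.23 (SD), lay near the 23 °C mean of 12.62 ± 0.19, and the 30 °C mean was 13.01 ± 0.12. Rps28 averaged 10.29 ± 0.09, 10.23 ± 0.16 and 10.23 ± 0.09 in 10, 18 and 23 °C offspring and 10.60 ± 0.22 in 30 °C offspring. No member lay wholly lower in the 30 °C group (0.333% of all clusters). With Rpl5, which binds the smallest ribosomal RNA of the large subunit and is named after its values were seen, these made 3 members (4.76%) without overlap, against 0.419% of all clusters. The 3 lower members were Rps4l (-0.85 ± 0.31) and Rpl10l (-0.54 ± 0.24), both -like paralogs, and Rpl28 (-0.48 ± 0.22).

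Between 10 °C and 30 °C offspring, the coldest and the warmest dams, 55 of 63 members (87.3%) were lower in the 10 °C group, against 48.9% of all clusters. The median was -0.176 (all clusters 0.0058), -0.164 in the large and -0.239 in the small subunit. By limma 0 members and 0.0% of all clusters passed, and the smallest adjusted p was 0.662. At an unadjusted p under 0.05, 17 members were lower and 0 higher, against 3.13% and 3.63% of all clusters, and the 17 became 11 when 10 °C animal 2, or animal 7 or 8 of the 30 °C group, was left out. Rpsa differed by -0.56 ± 0.16, Rps16 by -0.43 ± 0.14, Rps24 by -0.42 ± 0.14 and Rpl37a by -0.39 ± 0.13 (SE, n = 5 per group, adjusted p = 0.662 each). Only Rps15 and Rps28 did not overlap, both lower in the 10 °C group (3.17%, against 0.473% of all clusters lower and 0.509% higher), and Rps15 is named after its values were seen.

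Between 18 °C and 30 °C offspring the differences were the widest of the 6 comparisons by their median, at -0.224 (all clusters 0.0033). The mean was lower in the 18 °C group for 56 of 63 members (88.9%, against 49.4% of all clusters), with medians of -0.190 in the large and -0.248 in the small subunit. No call was made by limma, for 0 members and 0.0% of all clusters, with a smallest adjusted p of 0.332. There were 19 lower and 0 higher members at an unadjusted p under 0.05, against 4.0% and 4.21% of all clusters. No single array left out moved that 19 by over 1.5 times.

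Rpl37a, a zinc finger protein of the large subunit, read 11.07, 10.94, 11.03, 11.001 and 11.20 in 18 °C arrays and 11.42, 11.39, 11.47, 11.82 and 11.96 in 30 °C arrays. Its 10 °C arrays read 11.13, 11.09, 11.21, 11.28 and 11.40 and its 23 °C arrays 11.25, 11.40, 11.49, 11.41 and 11.43. All 18 °C values lay below all values of the 23 °C and 30 °C groups, with 30 °C animals 7 and 8 the highest. The difference between 18 °C and 30 °C offspring was -0.56 ± 0.13 (SE, 1.48-fold, limma adjusted p = 0.332), and it was -0.39 ± 0.13 between 10 °C and 30 °C offspring.

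Rpl9, of the large subunit, showed a different order. Its arrays read 13.80, 13.98, 14.00, 14.37 and 14.20 in 10 °C, 13.83, 13.76, 13.72, 13.44 and 13.76 in 18 °C, 13.90, 14.05, 13.93, 13.99 and 14.06 in 23 °C, and 14.14, 13.92, 14.26, 14.44 and 14.26 in 30 °C offspring. The 18 °C group was the low one, below all 23 °C and 30 °C values, while the 10 °C group overlapped all others. It differed by -0.50 ± 0.13 between 18 °C and 30 °C offspring (SE, limma adjusted p = 0.352) and by 0.37 ± 0.13 between 10 °C and 18 °C offspring (adjusted p = 0.504). Rpl7 (-0.43 ± 0.12), of the large subunit, and Rps26 (-0.47 ± 0.13), of the small subunit, both had an adjusted p of 0.365 between 18 °C and 30 °C offspring. Together with Rpl6 and Rpl7a, these and Rpl37a and Rpl9 formed the 6 members (9.52%, against 0.775% of all clusters) whose 18 °C arrays lay wholly below the 30 °C arrays, and 0 members lay wholly above (0.639% of all clusters).

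**Figure D4:**
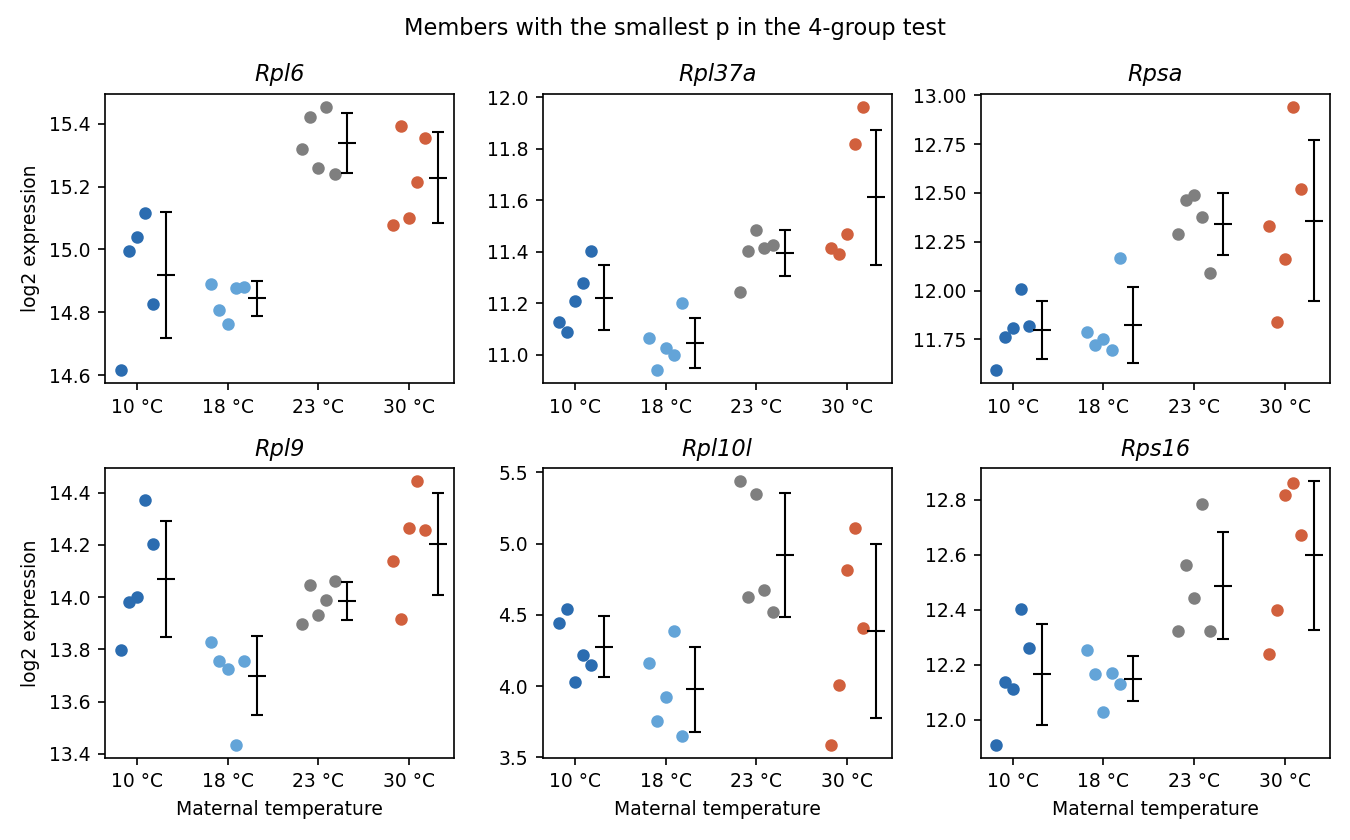
Log2 expression (vertical axis, a separate scale per panel) of the 6 members with the smallest p in the 4-group test by maternal temperature (horizontal axis), 1 point per array, with the mean and SD of 5 arrays per group. Rpl6 and Rpsa are low in both colder groups, Rpl37a and Rpl9 are lowest in the 18 °C group, and Rpl10l lies near background (mean 4.39).

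Between 10 °C and 18 °C offspring, the 2 degrees of cold, the members were divided in direction. The 10 °C mean was lower in 24 of the 63 members (38.1%, against 49.9% of all clusters) and higher in 39, with a median of 0.035 (all clusters 0.0009). Limma called 0 members and 0.0% of all clusters, with a smallest adjusted p of 0.504, and at an unadjusted p under 0.05 stood 1 lower and 1 higher member, against 3.79% and 4.31% of all clusters. The median went from 0.0094 without 18 °C animal 5 to 0.067 without 10 °C animal 2, and was 0.020 without 10 °C animal 6 and 0.057 without 18 °C animal 3. Rpl31 (-0.28 ± 0.12, adjusted p = 0.555) and Rpl14 (0.19 ± 0.11, adjusted p = 0.675), both of the large subunit, were the members without overlap in each direction (0.666% and 0.752% of all clusters). Rpl35a, also of the large subunit, differed by 0.26 ± 0.14 (adjusted p = 0.650).

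Ranked over the 4 groups, the 18 °C mean was the lowest for 34 members, the 10 °C mean for 22, the 23 °C mean for 5 and the 30 °C mean for 2. The 30 °C mean was the highest for 38 members, the 23 °C mean for 18, the 10 °C mean for 5 and the 18 °C mean for 2. Both colder means were under both others for 37 of 63 members (58.7%), and for 19.6% of all clusters. In the limma F-test over the 4 groups 0 members and 0.0% of all clusters passed, with a smallest adjusted p of 0.342 for Rpl6. The unadjusted p was under 0.05 for 19 members (30.2%, against 9.86% of all clusters). With the background control level as a covariate these were 9 members, and over all clusters 1590 in place of 2190.

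When the 10 arrays of the colder groups were set against the 10 others, a comparison added after the data were seen, 58 of 63 members were lower, with a median of -0.166, and 0 passed in limma (27 lower and 1 higher at an unadjusted p under 0.05, against 5.8% and 5.71% of all clusters, and 0.0045% passing). Rpl6 (-0.40 ± 0.08 SE) and Rpsa (-0.54 ± 0.12) both had an adjusted p of 0.114, and with an intensity trend and robust variance Rpl6 alone passed, at 0.0435.

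Expressed as a slope on maternal temperature, the log2 difference per 10 °C, 55 of the 63 members had a value above 0 and 8 (12.7%) one below, against 51.1% of all clusters below 0. The median slope was 0.110 over the members and -0.0029 over all clusters. After adjustment limma passed 0 members and 0.0% of all clusters, with a smallest adjusted p of 0.444. At an unadjusted p under 0.05 stood 17 positive and 0 negative members, against 3.85% and 4.3% of all clusters. Small subunit members had a median slope of 0.130 and large subunit members one of 0.095. Rpsa had the steepest slope of the members (0.32 ± 0.08 SE, adjusted p = 0.444), followed by p by Rps16 (0.24 ± 0.07), Rps24 (0.23 ± 0.07), Rpl27 (0.29 ± 0.09), Rpl37a (0.22 ± 0.07) and Rpl36a (0.22 ± 0.07), with adjusted p between 0.444 and 0.470. Rps24 read 14.16, 14.05, 13.96, 14.21 and 13.95 in 10 °C, 13.86, 14.18, 14.01, 14.09 and 14.01 in 18 °C, 14.26, 14.20, 14.52, 14.39 and 14.19 in 23 °C and 14.14, 14.31, 14.38, 14.93 and 14.66 in 30 °C arrays, and 30 °C animals 7 and 8 carried its highest values. A straight line describes the order of the groups only roughly, since the 18 °C mean, not the 10 °C mean, was the lowest for 34 members.

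Members with a C and T run of at least 8 bases at the start and members with a shorter one had median slopes of 0.090 (23 genes) and 0.122 (27 genes). Members with and without CCGGAA in the promoter window had median slopes of 0.098 (26 genes) and 0.129 (24 genes). Of the genes printed above, those with long runs had slopes of 0.16 ± 0.06 (Rpl35), 0.06 ± 0.06 (Rps10), 0.16 ± 0.12 (Rpl28) and 0.11 ± 0.06 (Rps18). Those with short runs, which were picked for their differences between groups, had slopes of 0.20 ± 0.07 (Rpl6), 0.32 ± 0.08 (Rpsa), 0.24 ± 0.07 (Rps16) and 0.09 ± 0.08 (Rpl9). The 2 sets of printed genes are therefore not a comparison of long with short runs. Rpl7a, with a run of 21 bases and 30 °C arrays wholly above its 23 °C arrays, was not printed.

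The -like paralogs, copies whose symbols end in l or l1 and several of which are known from testis, muscle or stress responses, were mixed in direction. Of the 6 above background, 4 were lower and 2 higher in 10 °C than in 23 °C offspring. The 4 include Rpl10l, which lies below the negative control rows and is not clearly above background. The slope was above 0 in Rpl10l, Rpl22l1 and Rpl32l and below 0 in Rpl7l1, Rps27l and Rps4l, with a median of 0.026. Of the 55 members above background that are not such paralogs, 52 had slopes above 0 (median 0.110), and Rplp1, Rpl14 and Rpl22 made up the rest. Whether the difference between these sets exceeds the scatter of genes was not tested.

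Both copies were measured in 6 pairs, and both were above background in 4 of them. Rpl22 differed by 0.06 ± 0.12 and Rpl22l1 by -0.17 ± 0.24 between 10 °C and 23 °C offspring, and Rpl3 differed by -0.11 ± 0.16, while Rpl3l, of muscle, is not above background. Rpl7 stood at -0.06 ± 0.12 and Rpl7l1 at 0.27 ± 0.15. Rpl39, which is X-linked, stood at 0.15 ± 0.14, and its testis paralog Rpl39l is not above background. Rps4x, also X-linked, stood at -0.11 ± 0.13 and Rps4l at -0.42 ± 0.31. Rpl32 and Rpl32l stood at -0.22 ± 0.12 and -0.38 ± 0.16 (SE, smallest limma adjusted p of all these 0.377). In the 4 pairs above background the slopes were -0.03 ± 0.06 for Rpl22 and 0.17 ± 0.12 for Rpl22l1, 0.13 ± 0.06 for Rpl7 and -0.07 ± 0.07 for Rpl7l1, 0.16 ± 0.06 for Rps4x and -0.13 ± 0.17 for Rps4l, and 0.09 ± 0.06 for Rpl32 and 0.12 ± 0.09 for Rpl32l. None of these 8 passed, and the difference within a pair was not tested.

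Among proteins with particular roles, the stalk of the large subunit, which recruits the translation factors, was measured through Rplp0 and Rplp1. Rplp0 averaged 10.89 ± 0.08, 10.89 ± 0.21, 10.98 ± 0.11 and 11.17 ± 0.23 in 10, 18, 23 and 30 °C offspring (SD, n = 5), with a slope of 0.14 ± 0.06 (SE, limma adjusted p = 0.591). Rplp1 averaged 15.72 ± 0.17, 15.80 ± 0.16, 15.73 ± 0.22 and 15.65 ± 0.18, overlapping in all groups, with a slope of -0.04 ± 0.06 (adjusted p = 0.927). The 2 stalk genes thus had slopes of opposite sign, neither past the threshold.

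Several members serve as reference genes in quantitative PCR, so their values between the groups are of practical use. Rps18 averaged 13.97 ± 0.10, 13.95 ± 0.11, 14.19 ± 0.19 and 14.15 ± 0.15 in 10, 18, 23 and 30 °C offspring (SD), and its differences from 23 °C were -0.22 ± 0.12 and -0.25 ± 0.12 in the colder groups (SE, limma adjusted p = 0.487 and 0.547). Rpl32 differed by -0.22 ± 0.12 between 10 °C and 23 °C offspring and Rpl19 by 0.10 ± 0.11 (adjusted p = 0.468 and 0.783). Rpl41, the smallest ribosomal protein, differed by -0.20 ± 0.13 (adjusted p = 0.573), and 10 °C animal 2 held its lowest value. All 4 genes overlapped between these groups.

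The median pooled within-group SD was 0.180 over the members and 0.294 over the 12464 clusters above background, a comparison not matched on level. The 4 steadiest were Rpl4 (0.081), Rpl14 (0.097), Rps23 (0.0995) and Rpl17 (0.104). The 4 most variable were Rps4l (0.556), Rpl10l (0.418), Rpl22l1 (0.406) and Rpl28 (0.371), 3 of them -like paralogs. Ribosomal protein genes have many near-identical processed copies in the mouse genome, and how far each probe set also reads these copies was not tested.

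Other genes of the translation machinery were examined in the same fit, and 0 of them passed in limma in any comparison. Of the 6 ribosomal proteins listed whose symbols fall outside the rule, 3 were measured, all with slopes above 0 (median 0.148). Rpl36al, a paralog of Rpl36a, had a slope of 0.20 ± 0.07 (SE, adjusted p = 0.505) and Rps27rt one of 0.15 ± 0.08 (0.626). Of 14 elongation and termination factors 11 had slopes above 0 (median 0.0385). Tpt1 stood at 0.13 ± 0.06 (0.599), and Abce1, which splits ribosomes after termination, at -0.20 ± 0.06 (0.464).

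The 29 measured initiation factors, which bring mRNA and initiator tRNA to the small subunit, had a median slope of 0.0063, with 15 above 0. Eif3a, the largest subunit of the initiation complex eIF3, had a slope of -0.22 ± 0.07 (SE, limma adjusted p = 0.466), and Eif6, which keeps free large subunits from joining small ones, one of -0.22 ± 0.08 (0.511). Both were thus higher in the 10 °C group, at 10.10 against 9.74 in 23 °C offspring for Eif3a and 10.05 against 9.42 for Eif6. The median was -0.041 in 49 ribosome assembly factors (22 above 0), with Mrto4 at 0.17 ± 0.08 (0.582) and Rsl1d1 at -0.13 ± 0.06 (0.601). It was 0.030 in 14 genes of RNA polymerase I, which transcribes ribosomal RNA, and its factors (8 above 0), with Polr1b, its second largest subunit, at -0.19 ± 0.10 (0.646) and Taf1c, whose mean of 3.72 is not above background, at 0.12 ± 0.07 (0.649). In 16 regulators of mTORC1 and of tract-bearing mRNAs it was 0.019 (9 above 0), with Eif4ebp2 at -0.06 ± 0.06 (0.849) and Pdcd4 at 0.10 ± 0.10 (0.853).

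**Figure D5:**
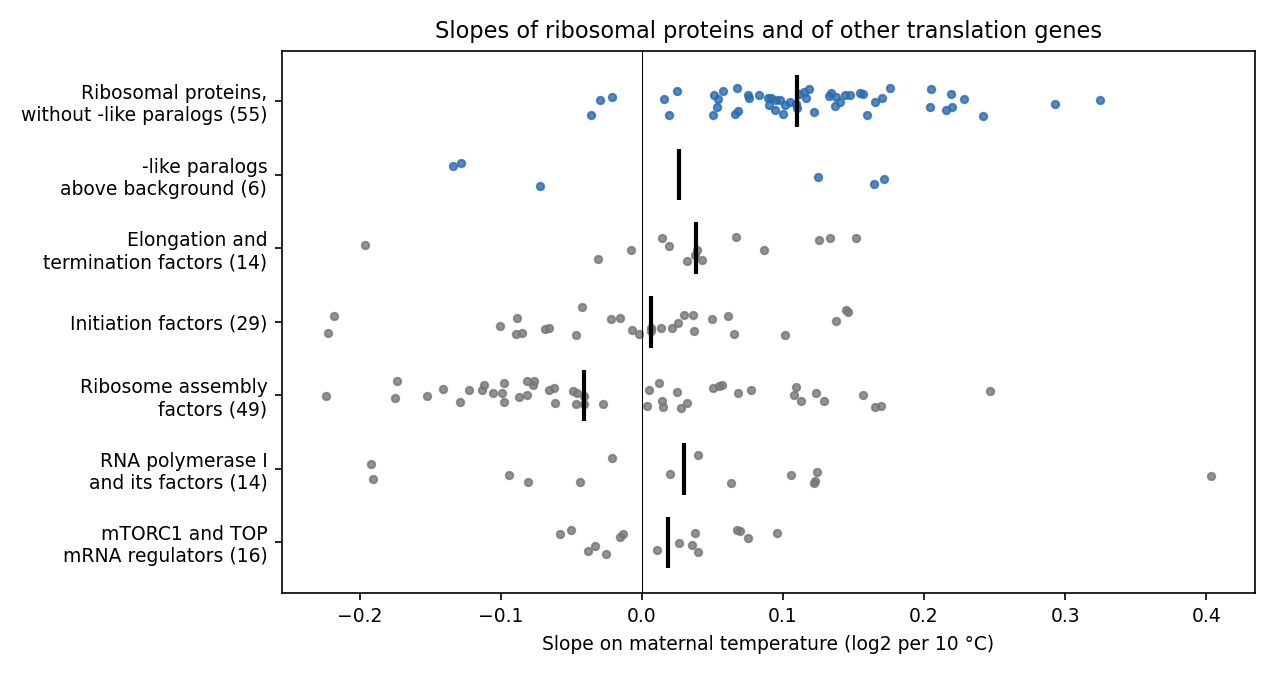
Slope on maternal temperature (horizontal axis, log2 per 10 °C) of each measured gene in 7 sets (vertical axis, number of genes in parentheses), blue for ribosomal proteins and grey for other translation genes; thick ticks are medians. The median is 0.110 for the 55 ribosomal proteins without -like paralogs and 0.026 for the 6 paralogs above background, and those of the other sets lie between -0.041 and 0.0385.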

How the data were processed

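Liver RNA of 20 mice was hybridised to 20 Affymetrix arrays, and the deposited table holds log2 values that the authors made with RMA, which corrects background, normalises quantiles and summarises probes, and the Transcriptome Analysis Console, per the submitters' processing notes. Versions and genome build are not given in the sources used here. Quantile normalisation would hide a shift of all transcripts, and RMA understates differences of dim probe sets. Of 28846 rows, 22206 were transcript clusters, 19572 of them with 1 symbol (0 with several, 2634 with none), and 6640 were control rows. Array medians ran from 4.39 to 4.46, correlations between arrays from 0.987 to 0.993, and 0 pairs were identical. The number of arrays limits the precision.

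Limma 3.58.1 in R 4.3.3 (lmFit, eBayes) fitted 1 mean per group over all clusters and arrays. Tests are two-sided, adjusted by Benjamini-Hochberg over all clusters, with a threshold of 0.05. The fit was tested on simulated data. Members and lists were chosen with earlier results of these data known. Named are the 4 members with the smallest p in each comparison, the 6 in the F-test and slope, the 4 most and least variable, stalk, reference and paralog genes, and 2 genes of each pathway list by slope. Alternatives changed the variance model, array weights, background filter, centring, normalisation, a background covariate, an animal number block and single arrays. Whether animal numbers pair the arrays was checked: of 11 same-numbered pairs 1 had a correlation of deviations over 0.1 (-0.151 to 0.111). The numbers were therefore not used as pairs in the main fit, though such correlations cannot show that same-numbered arrays share nothing.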

Additional observations from a re-analysis of the deposited data

Results flagged for a closer look

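Of 160 sets of 5 arrays tested for a value far from its group by Dixon's criterion at the 95% level, 7 met it, where chance gives about 1 in 20. Rpl22l1 in 30 °C animal 5 stood at 8.267 against 9.378 to 9.588 in the other arrays of its group. Rpl29 in 18 °C animal 1 stood at 10.992 against 11.483 to 11.601. Rpl31 in 30 °C animal 6 stood at 14.345 against 14.009 to 14.103. Rpl41 in 10 °C animal 2 stood at 14.676 against 14.972 to 15.076. Rpl7 in 23 °C animal 1 stood at 14.807 with 15.064 the highest of the other 4 arrays. Rpl9 in 18 °C animal 5 stood at 13.436 against 13.723 to 13.827. Rpsa in 18 °C animal 7 stood at 12.165 against 11.694 to 11.787.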

How the results depend on the processing

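In the 6 pairwise comparisons, the F-test and the slope, 0 members passed under every alternative run, and the member medians kept their sign. The cold against warmer comparison, added after seeing the data, had 1 member passing, Rpl6, with an intensity trend and robust variance (adjusted p = 0.0435), and 0 under its other alternatives. Leaving out 1 array at a time, the medians ran from -0.158 to -0.096 (10 °C minus 23 °C), -0.179 to -0.093 (18 °C minus 23 °C), 0.051 to 0.127 (30 °C minus 23 °C), -0.201 to -0.147 (10 °C minus 30 °C), -0.242 to -0.183 (18 °C minus 30 °C), 0.0094 to 0.067 (10 °C minus 18 °C), 0.088 to 0.119 (slope) and -0.182 to -0.146 (cold minus warmer), with 0 members called in each.

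With the animal number as a replicate block, the median of 30 °C minus 23 °C was 0.00499, with 31 of 63 members lower. This block leaves few degrees of freedom and rests on numbers that the labels do not describe as pairs. The other medians under the animal number block were -0.152, -0.168, -0.142, -0.198 and 0.064 in the order above, 0.096 for the slope and -0.175 for cold minus warmer. It took the members lower at an unadjusted p under 0.05 from 15 to 5 (10 °C minus 23 °C), 16 to 3 (18 °C minus 23 °C), 17 to 5 (10 °C minus 30 °C), 19 to 7 (18 °C minus 30 °C) and 27 to 9 (cold minus warmer). In the F-test it took the members from 19 to 3 and all clusters from 2190 to 1268, and for the slope from 17 to 10 and 1809 to 1429. Renewed quantile normalisation gave medians of -0.061, -0.069 and 0.138 against 23 °C, and 0.057 for 10 °C minus 18 °C. A slope on the rank of the temperature had a median of 0.073 per rank. With the background control level as a covariate the 27 became 13. Of the 696 alternatives for 24 named gene results, 0 reversed and 0 passed (smallest adjusted p = 0.121). The cause of these shifts was not tested.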
